A study of Mus musculus with 6 samples.

Results

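The regions described here carried H3K27ac peaks in proliferating C2C12 myoblasts and again after 72 h of differentiation, but had no peak in the 36 h list. They were found by merging the peaks of the 3 stages wherever peaks of different lists overlapped by at least 1 bp, and by keeping merged regions with a proliferation peak, a 72 h peak and no 36 h peak. This rule gave 4463 regions of 112926 merged regions in all (3.95%), and they are called 36 h gap regions below. The number depended on the settings: it was 1315 when the proliferation and 72 h peaks had to have a −log10 q (the authors' adjusted significance of a peak) of at least 5, 2564 when all lists did, 2826 with a fold of at least 5, 2147 when peaks up to 1 kb apart were joined, and 2664 with no 36 h peak allowed within 1 kb. The calls themselves chose these regions, so the presence of peaks in 2 lists and their absence from the third is a description and carries no test.

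H3K27ac is the acetylated form of lysine 27 of histone H3. It is written mainly by the acetyltransferases CBP and p300 and removed by histone deacetylases, and it marks active promoters and enhancers. C2C12 is an established mouse myoblast line whose cells divide as single cells and, once they differentiate, leave the cell cycle and fuse into multinucleated myotubes. During this change myoblast enhancers are known to lose acetylation while muscle gene enhancers gain it. A site called in the dividing cell and in the late culture, with no call between them, matches neither of these courses by its calls. A missing call does not by itself show that acetylation was lost.

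The series holds 6 libraries, an H3K27ac ChIP-seq library and an input library (chromatin sequenced without immunoprecipitation) for each stage: proliferation, differentiation for 36 h, and differentiation for 72 h. All came from the same C2C12 line with no genetic change or drug named. Each ChIP library was made from DNA pooled over 4 ChIP assays with 1.2 µg of antibody each. With 1 library per stage there was no replicate, no difference between stages could be tested, and an effect of the 36 h stage and an effect of the 36 h library cannot be told apart. The proliferation, 36 h and 72 h lists held 57101, 89717 and 97144 peaks. Relative to proliferation, the 36 h ChIP library was 1.2 times as deep and the 72 h library 1.1 times, as inferred from the peak lists. At regions called at all 3 stages the median summit fragments, scaled for depth, were 30, 29.3 and 34.6 in the same order of stages. The part of depth or enrichment in the missing calls was not tested. Positions are on mouse build mm9 and count from 1. They were not linked to genes, so the line's identity was not checked against myoblast marker genes, and no sequence is shown because no genome of this build was used.

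A missing 36 h call was more frequent than a missing 72 h call, and less frequent than a missing proliferation call. Of 33371 regions with both a proliferation and a 72 h peak, 4463 (13.4%, 95% Wilson interval 13.0 to 13.7%) had no 36 h peak. Of 30823 regions with both a proliferation and a 36 h peak, 1915 (6.21%, 5.95 to 6.49%) had no 72 h peak, and these are called 72 h gap regions. Of 54072 regions with both later peaks, 25164 (46.5%) had no proliferation peak. Seen from proliferation, 12031 regions lacked a 36 h peak and 37.1% of them (36.2 to 38.0%) had a 72 h peak, whereas 9483 lacked a 72 h peak and 20.2% of them (19.4 to 21.0%) had a 36 h peak. Seen from the later stages, 14.2% of 31462 regions with a 72 h and no 36 h peak had a proliferation peak, compared with 9.66% of 19824 regions with a 36 h and no 72 h peak. The lists differ in length. With all lists cut to the length of the shortest, 14.6% of regions with the other 2 stages (14.2 to 15.1%) lacked a 36 h peak, 10.4% (10 to 10.8%) lacked a 72 h peak and 35.0% lacked a proliferation peak. These shares were added after the data had been seen. The order was kept, but the 36 h and 72 h shares lay closer together. The shares seen from proliferation also lay closer, at 24.2% (23.5 to 24.8%) for a 72 h peak and 17.7% (17.1 to 18.3%) for a 36 h peak. Of these, the 17.7% was likewise added after the data had been seen. All intervals here cover counting error only.

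Most 36 h gap regions were short and simple. They covered 2.26 Mb, had a median width of 433 bp (quartiles 318 and 612 bp), and held 8.31% of all proliferation peaks and 4.89% of all 72 h peaks. In 3990 regions (89.4%) there was a single peak of each list. Both peaks lay on top of each other in most of these: the median overlap was 98.6% of the shorter peak, and the summits were a median of 70 bp apart (quartiles 32 and 130 bp). In 359 of the 3990 (9.0%) the overlap was less than 50% of the shorter peak, and 2 regions were joined by 1 bp alone. Neither stage had the wider peak as a rule, with the 72 h peak wider in 1909 and the proliferation peak wider in 2052.

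The peaks were of low to middling strength in their own lists. Fold is the authors' summit enrichment, ChIP pileup over local background. The strongest proliferation peak of a 36 h gap region had a median fold of 5.06 (quartiles 4.23 and 6.19), against 6.95 (5.18 and 9.90) at the 28908 regions called at all 3 stages. At 72 h the medians were 4.89 (4.22 and 6.15) and 9.94 (6.65 and 15.1) in the same order. Only 46 of the 4463 regions (1.03%) reached the top 10% of the proliferation list by fold. That of the 72 h list was reached by 5 (0.112%), and both by 2 (0.0448%). For regions called at all 3 stages the shares were 18.4%, 27.4% and 11.9% in the same order. In all, 1970 regions (44.1%) lay in the lower 50% of both lists, against 9.0% of regions called at all 3 stages. In summit fragments, recovered from fold and p, the medians were 19 in proliferation and 17 at 72 h. Scaled for depth, the 72 h number was 0.815 times the proliferation number (quartiles 0.643 and 1.04) in 36 h gap regions and 1.14 times (0.862 and 1.5) in regions of all 3 stages. More 72 h than proliferation fragments per depth were found in 1266 of 4463 gap regions (28.4%), against 18073 of 28908 regions of all 3 stages (62.5%). Local background over genome background had a median of 1.6 in proliferation and 1.09 at 72 h in gap regions. In regions of all 3 stages it was 1.98 and 1.28. The smallest −log10 p was 3.24 in the proliferation list and 2.92 in the 72 h list. The part of background and calling threshold in these folds and fragment ratios was not tested. Since the rule used the calls, these strengths are a description.

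At the edge of the rule, 122 regions of all 3 stages had a strongest 36 h peak with a −log10 q under 2. Their median fold was 5.04 in proliferation, 2.95 at 36 h and 5.55 at 72 h, with 20, 12 and 20 summit fragments. Just inside it, 334 gap regions had a −log10 q under 2 in proliferation or at 72 h, with median folds of 3.62 and 3.32.

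How far a missing 36 h call departs from what the other stages would give was described by the fragments expected at 36 h. For each region the proliferation number was multiplied by 1.20, and the 72 h number by 0.947, the median ratios of 36 h to those stages at regions of all 3 stages. The share of regions without a 36 h peak fell with the lower of the 2 estimates. It was 62.1% (131 of 211) where fewer than 10 fragments were expected, 35.6% (908 of 2552) at 14 to 16, 10.6% (516 of 4872) at 20 to 25, and 1.54% (82 of 5331) at 30 to 40. At 40 to 60 expected fragments 11 of 5067 regions (0.217%) had no 36 h peak, and 1 of 3744 did at 60 or more. That region lay on an unplaced sequence, with folds of 2.21 and 1.70 over a local background of 42 in proliferation and 52 at 72 h. Background is given in pileup units, which are fragments multiplied by a factor set for each list. A 36 h call needed 9 fragments at genome background and 15 at the 95% quantile of background of the 36 h peaks, which was 3 pileup units.

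**Figure D1:**
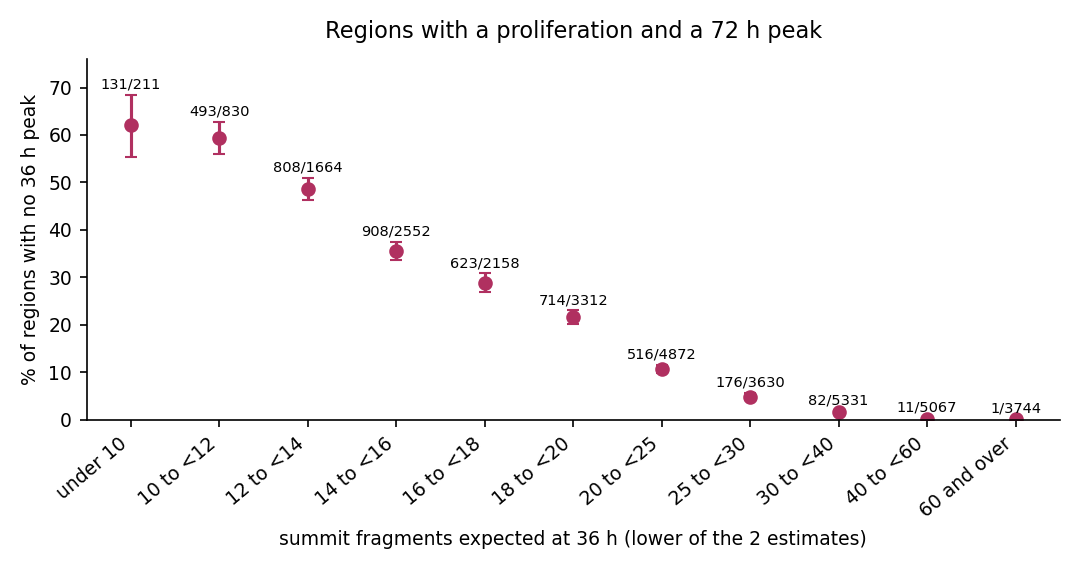
Share of regions with a proliferation and a 72 h peak that had no 36 h peak (vertical axis, %), by the lower of the 2 numbers of summit fragments expected at 36 h (horizontal axis). Points are shares with 95% Wilson intervals, labelled with 36 h gap regions over all regions in the bin, and fall from 62.1% to 0.0267%. The only gap region in the last bin lies on an unplaced sequence with high local background.

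The ratios come from regions that had a 36 h call, so the expected numbers may lean high for gap regions. With detectable taken to mean at least a 99% chance of reaching 15 fragments at 36 h, a Poisson chance that covers counting error only and takes the expected number as exact, the proliferation peak was detectable in 1458 gap regions (32.7%) and the 72 h peak in 416 (9.32%). Both were detectable in 244 regions (5.47%), and neither in 2833 (63.5%). The 244 include the unplaced region above, whose local background of 42 and 52 exceeded the background of 3 behind the 15 fragments asked for here. Of the 17231 regions of proliferation and 72 h with both peaks detectable, the 244 made up 1.42% (1.25 to 1.60%). A stricter chance of a call left 94 of 14142 (0.665%), and scaling for depth alone gave 376 of 18454 (2.04%). Setting the 36 h background to each region's own background in the other lists, where that was higher, left 197 of 16511 (1.19%). The number of such gap regions was 86 with a −log10 q of at least 5 in every list, 108 with lists of equal length, 129 with peaks up to 1 kb apart joined and 147 with a fold of at least 5. Of the 244, 144 had no 36 h peak within 1 kb and 102 had none within 5 kb.

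The gap regions ranged from those beside a 36 h peak to those far from one. The nearest 36 h peak was a median of 2.55 kb away, but the distances were broad: 616 regions (13.8%) lay within 200 bp, 1799 (40.3%) within 1 kb, 1829 (41.0%) beyond 5 kb and 485 (10.9%) beyond 50 kb. The median moved with the settings, to 12866 bp with peaks up to 1 kb apart joined, 11009 bp with no 36 h peak allowed within 1 kb, 5070 bp with lists of equal length, 4954 bp with a −log10 q of at least 5 in every list and 1751 bp with an overlap of at least 50% of the shorter peak. With that q threshold in proliferation and at 72 h alone, 578 of the 1315 gap regions lay beyond 5 kb. Of those within 1 kb, 1621 had a 36 h peak on 1 side only and 178 on both sides. The nearest 36 h peak within 1 kb belonged to a region called at all 3 stages in 1445 of 1799 cases (80.3%), a class that made up 39.1% of all regions with a 36 h peak. For regions called in proliferation only, the same share within 1 kb was 71.1%, and for regions called at 72 h only it was 32.6%. Regions near and far were alike in strength, with a median proliferation fold of 4.85 within 200 bp and 5.35 beyond 50 kb, and a median 72 h fold of 4.89 and 5.02.

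**Figure D2:**
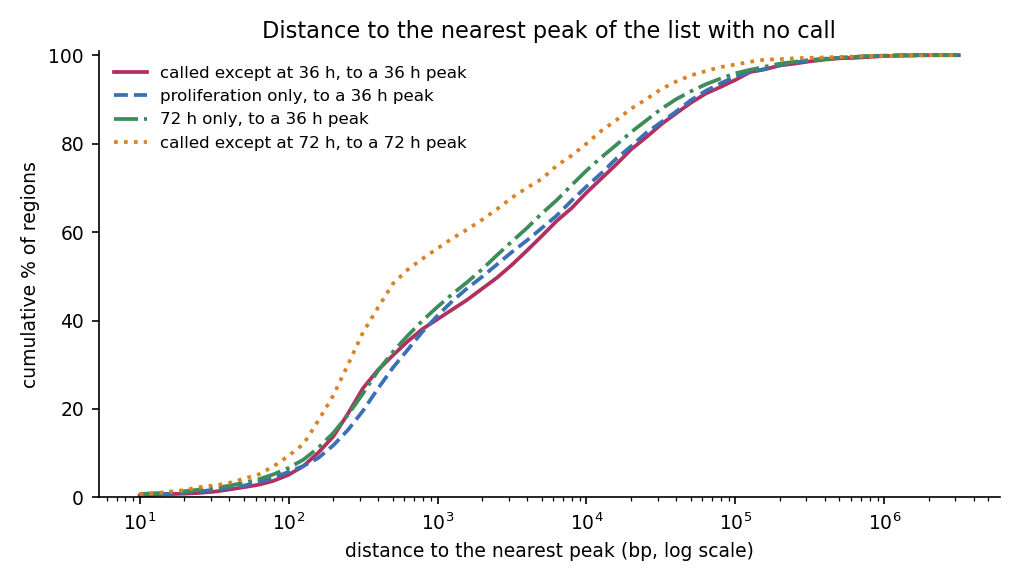
Cumulative share of regions (vertical axis, %) whose nearest peak in the named list lies within a given distance (horizontal axis, bp, log scale). The curve of 36 h gap regions passes 40.3% at 1 kb and 59.0% at 5 kb, close to the curves of regions called in proliferation only and at 72 h only, while 72 h gap regions reach 56.3% and 72.0% with respect to 72 h peaks.

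The surroundings of the gap regions held fewer 36 h peaks than those of regions called at all 3 stages. The rule sets part of this, since a 36 h peak that touched a gap region would have merged with it. Regions called at all 3 stages need a 36 h peak of their own, and how much the rule sets was not tested. Within 10 kb of a 36 h gap region there were on average 3.13 other proliferation peaks, 2.34 peaks at 36 h and 3.27 other peaks at 72 h. Around regions called at all 3 stages the averages were 2.73, 3.71 and 3.68, so that 36 h peaks were 1.36 times as many as proliferation peaks there and 0.748 times as many around 36 h gap regions. At 50 kb the averages around gap regions were 8.43, 8.43 and 10.2, and around regions of all 3 stages 8.55, 12.7 and 12.7. The 72 h gap regions had 3.56, 3.84 and 3.17 within 10 kb, so the list without a call, here 72 h, again had the fewest peaks. There 36 h peaks were 1.21 times as many as 72 h peaks, against 1.01 times around regions of all 3 stages. Regions called in proliferation only had 3.63, 2.67 and 2.96, which is as few 36 h peaks per proliferation peak (0.734 times) as around the 36 h gap regions.

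**Figure D3:**
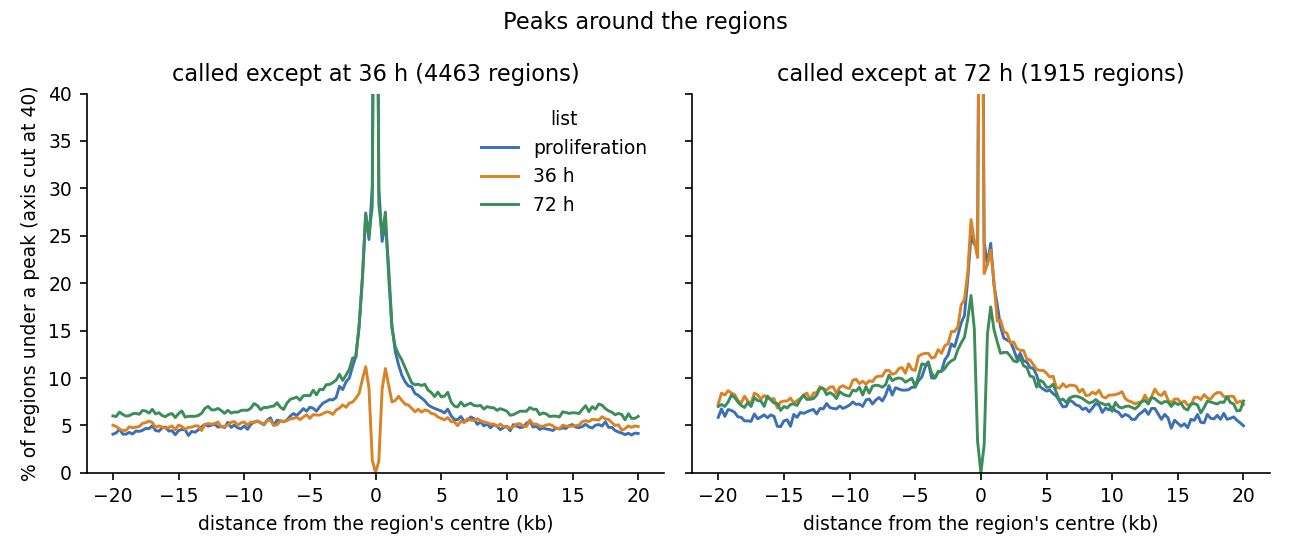
Share of regions under a peak of each list (vertical axis, %, cut at 40) at a given distance from the region's centre (horizontal axis, kb), for 36 h gap regions on the left and 72 h gap regions on the right. At 1 kb to the right of the centre 21.6%, 9.25% and 20.6% of 36 h gap regions lay under a proliferation, 36 h and 72 h peak, and at 20 kb 4.15%, 4.88% and 5.96%. By the rule, no peak of the list without a call can cover the centre.

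The 36 h level could also be read at regions that the rule left out, a measure added after the data had been seen. These regions are not independent of the rule, since a 36 h peak that reached a gap region would have merged with it. Regions called at all 3 stages have a 36 h value of their own, and it was set against the geometric mean of the proliferation and 72 h levels, all as strongest summit fragments per depth. Over all 28908 such regions the median of this log2 ratio was −0.09. At the 1620 regions within 1 kb of a 36 h gap region it was −0.61, equal to 0.657 times the mean of the other stages, and 36 h was the lowest of the 3 stages in 78.5% of them. At 1 to 10 kb it was −0.33 (2402 regions, 58.1% lowest at 36 h), at 10 to 50 kb −0.16 (5136 regions, 46.5%), and beyond 50 kb −0.02 (19742 regions, 31.5%). The median levels within 1 kb were 29 fragments per proliferation depth in proliferation, 16.7 at 36 h and 26.4 at 72 h. Beyond 50 kb they were 30, 32.6 and 36.4. The 36 h level of shared peaks was thus lower the nearer they lay to a gap region, and with no replicate library this was not tested. How much of it the rule itself sets was not tested either.

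The lower 36 h level near gap regions was present in all 4 bins of signal. When the regions of all 3 stages were divided by their mean level in proliferation and at 72 h, the median log2 ratio within 10 kb of a gap region was −0.29, −0.58, −0.58 and −0.35 from the lowest to the highest bin. Farther than 10 kb away the medians were −0.02, −0.09, −0.04 and −0.03. Without bins they were −0.44 (4022 regions, 36 h below the mean of the others in 82.1%) and −0.04 (24878 regions, 54.4%). Around 72 h gap regions the 36 h ratio was −0.12 within 1 kb and −0.07 beyond 50 kb, and within 10 kb it was −0.14. The 72 h level over the geometric mean of proliferation and 36 h was −0.12 within 1 kb, −0.04 within 10 kb and 0.24 beyond 50 kb. Regions called in proliferation only also had shared neighbours with a lower 36 h level, at −0.46 within 1 kb and −0.29 at 1 to 10 kb, so this feature was not limited to the 36 h gap regions.

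**Figure D4:**
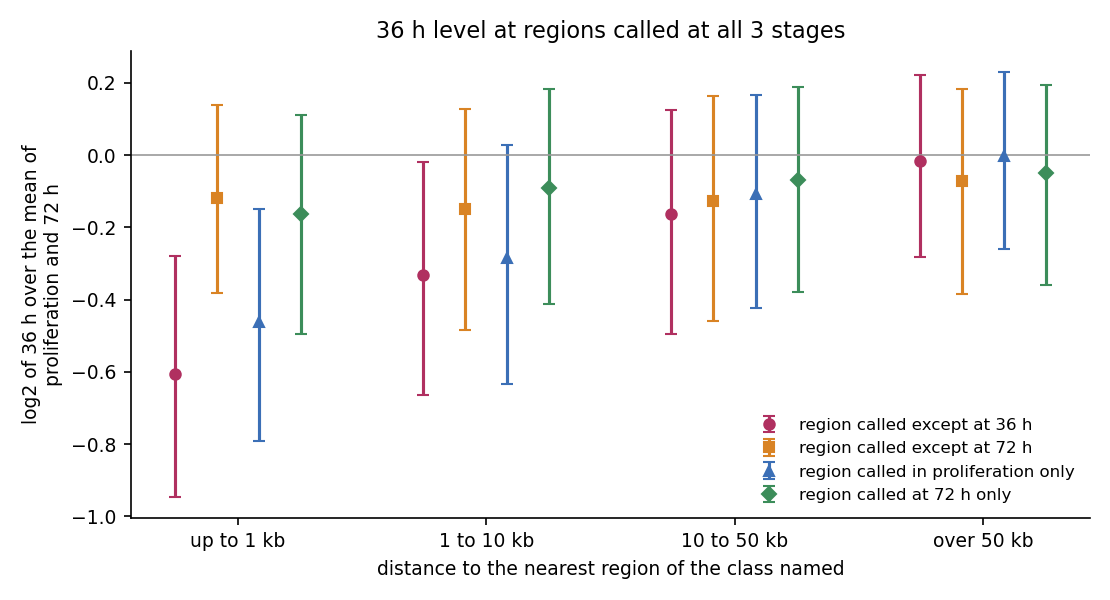
Log2 of the 36 h level over the geometric mean of the proliferation and 72 h levels (vertical axis) at regions called at all 3 stages, by distance to the nearest region of the class named in the legend (horizontal axis). Points are medians and bars run from the lower to the upper quartile. The medians for neighbours of 36 h gap regions rise from −0.61 within 1 kb to −0.02 beyond 50 kb.

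Some 36 h gap regions lay in clusters. Of the 4463, 2783 (62.4%) had no further gap region ending within 50 kb after their start, and the largest number within 50 kb was 10. Gap regions before the start were not counted, so the last region of a cluster can be among the 2783. The clusters given here were picked by the number of gap regions within 50 kb after it was seen. Few 36 h peaks and a low 36 h level inside them follow in part from this choice, and no other spans were set beside them. The densest lay on chromosome 10 from 120060290 to 120103144, with 10 gap regions in 42.9 kb. Proliferation had 16 peaks over 13.7 kb there, 36 h had 3 peaks over 1.46 kb and 72 h had 18 peaks over 8.20 kb. The highest folds in this span were 14 for proliferation, 7.57 for 36 h and 11.5 for 72 h. At its 2 regions called at all 3 stages the median 36 h level was 0.401 times the mean of the others.

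A second cluster, on chromosome 9 from 57785641 to 57822620, had 9 gap regions. The length under peaks was 16 kb for proliferation, 6.08 kb for 36 h and 14.9 kb for 72 h. The highest folds were 21.7, 9.11 and 21.9 by stage. At all 6 regions called at every stage in this span 36 h was the lowest, with a median of 0.494 times the mean of the others.

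Further clusters of 7 gap regions each lay on chromosome 8 from 55526757 to 55555263, on chromosome 1 from 151962236 to 151999899 and on chromosome 13 from 15851213 to 15896876. On chromosome 8 3.36 kb lay under proliferation peaks, 0.52 kb under 36 h peaks and 4.82 kb under 72 h peaks. On chromosome 1 the same lengths were 8.08, 1.86 and 6.12 kb. The chromosome 13 span had no 36 h peak at all, against 3.42 kb under peaks in proliferation and 3.42 kb at 72 h. Its strongest peaks had a fold of 10.2 in proliferation and 8.11 at 72 h, and it lay in a stretch of 47.5 kb between neighbouring 36 h peaks.

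Most stretches between consecutive 36 h peaks that held a gap region held 1. The 4463 regions fell into 3320 stretches, of which 2520 held 1, 800 held 2 or more and together 1943 gap regions, and 8 held 6 or more. These 8 stretches ran from 47.5 to 3879 kb in length. The 1915 72 h gap regions fell into 1695 stretches between 72 h peaks. Of those, 172 held 2 or more and together 392 regions, and 2 held 6 or more. The 2 classes differ in size, and whether either was more grouped was not tested.

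**Figure D5:**
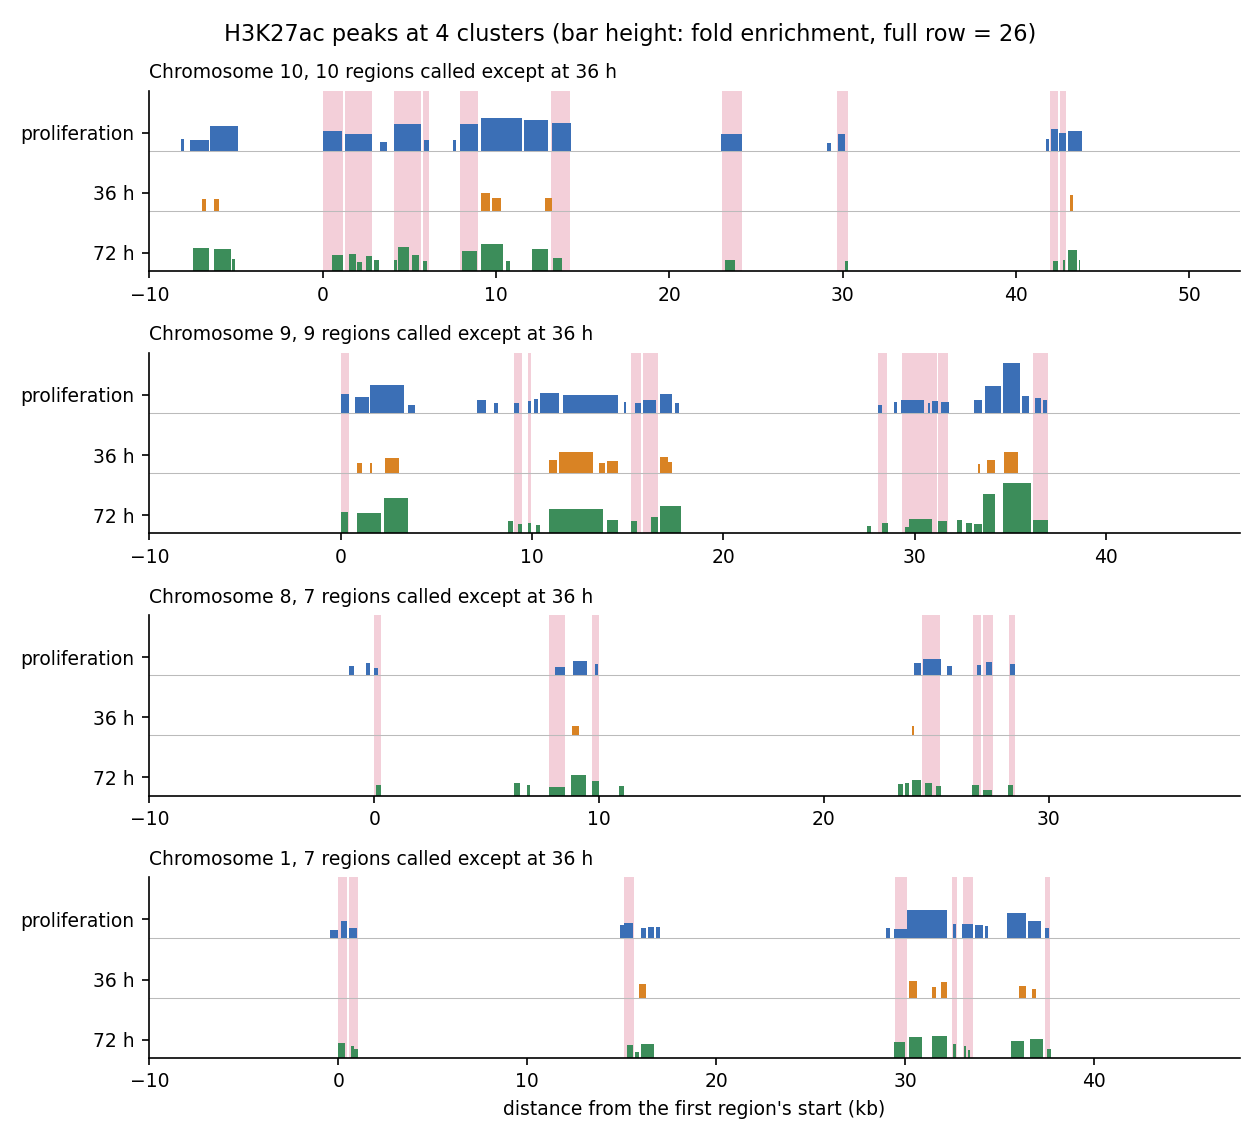
H3K27ac peaks of proliferation, 36 h and 72 h (rows) along 4 clusters of 36 h gap regions, with distance from the first region's start on the horizontal axis (kb). Bar height is the fold enrichment (a full row is 26), pale bands mark the gap regions, and the chromosome 10 cluster has 16, 3 and 18 peaks within its 42.9 kb.

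The strongest single gap regions were ranked by the lower of the percentiles that their folds held in the proliferation and 72 h lists. The first lay on chromosome 2 from 113462492 to 113463693, where proliferation had a fold of 12.8 (51 summit fragments) and 72 h one of 18.5 (61 fragments). A 36 h peak lay 167 bp away. The second, on chromosome 5 from 16299439 to 16302481, was the widest gap region at 3043 bp, with folds of 12 and 15 and 42 and 46 fragments in proliferation and at 72 h. Its nearest 36 h peak was 27.8 kb away, and the stretch of 790 kb free of 36 h peaks held 7 gap regions, while 17 other proliferation peaks and 7 other 72 h peaks lay within 50 kb. From these values 50.4 and 43.6 fragments would be expected at 36 h.

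The next ranks were mixed in the same way. On chromosome 7 from 16792260 to 16792991 the folds were 12.9 and 12.1 with 37 fragments at each stage, and a 36 h peak lay 243 bp away. On chromosome 1 from 186482549 to 186483763 the fold was 9.37 in proliferation and 18.2 at 72 h, with 37 and 63 fragments, and the nearest 36 h peak was 3.08 kb away. On chromosome 15 from 74828855 to 74829449 the order was the other way, with folds of 14 and 11.5 and 57 and 37 fragments, and a 36 h peak was 588 bp away. The sixth region, on chromosome 1 from 36185752 to 36186131, had folds of 9.53 and 11.2 and a 36 h peak at 724 bp.

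Among regions with no 36 h peak within 5 kb, the strongest after that on chromosome 5 was on chromosome 2 from 9713296 to 9714301. It had folds of 9.12 and 12.8, 32 and 39 fragments, and its nearest 36 h peak was 25.2 kb away. The region on chromosome 6 from 13832127 to 13833015 had folds of 9.12 and 13.1 and was 9.83 kb from a 36 h peak. On chromosome 15, the region from 67959780 to 67960275 had 43 and 47 fragments, and that from 43010506 to 43011177 had 48 and 47. Their nearest 36 h peaks were 14.1 and 102 kb away. Both had a local background of 1.91 pileup units or more in each list, against a genome background of 1.01 in proliferation and 1.08 at 72 h. The remaining regions of this ranking lay on chromosome 11 from 90147694 to 90148781 (folds 8.85 and 10.6, nearest 36 h peak at 9.17 kb) and from 81722486 to 81723029 (9.35 and 10.2, 97.4 kb). The last was on chromosome 13 from 104177380 to 104177803 (8.91 and 9.94, 52.4 kb). In these 3 the numbers of fragments were 31 and 32, 41 and 39, and 39 and 30.

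The gap regions were spread over the genome. All 20 placed chromosomes had some, 4451 regions in all, and 12 lay on unplaced sequences. Their share of the regions with a proliferation and a 72 h peak ran from 11% on chromosome 11 (274 of 2482, 9.87 to 12.3%) to 17.8% on chromosome 13 (268 of 1508, 15.9 to 19.8%), next to 13.4% overall. The median number of fragments expected at 36 h was 28.8 on chromosome 11 and 22.8 on chromosome 13, and its part in the difference was not tested. Of regions with both peaks detectable, 18 of 648 (2.78%) on chromosome 13 and 33 of 1150 (2.87%) on chromosome 15 had no 36 h peak. Local background more than 5 times that of the genome in both lists was found at 2 of 4463 gap regions (0.0448%). At regions of all 3 stages it was found at 22 of 28908 (0.0761%). One of the 2 gap regions, on an unplaced sequence, had 140 and 136 summit fragments but folds of 2.21 and 1.70.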

How the data were processed

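Per the submitters' processing notes, reads were handled with BWA, MACS2 and deepTools on mouse build mm9; no source used here gives versions, settings or the control. The deposited lists, 1 per H3K27ac library, are in narrowPeak format. They give the authors' fold (a ratio), −log10 p and −log10 q at each summit, and a deposited score, 10 times the −log10 q cut to a whole number, that was not used. The authors' values were used to describe, rank or filter peaks within 1 list.

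Fragments at the summit and local background were recovered from fold and p, taking fold as (pileup + 1) / (background + 1), p as the upper Poisson tail, and the pileup as whole fragments multiplied by a factor set for each list. This returned the deposited p of 100% of peaks within a relative tolerance of 0.0003, with a factor of 0.673 (proliferation), 0.698 (36 h) or 0.657 (72 h). Background values are in units of this scaled pileup, whereas fragments are given before scaling. Depth was the genome background over the factor. Recovery, merging and distances were tested on simulated data. Read totals were not given, so depths are relative, and shares carry 95% Wilson intervals.

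Regions were named by the lower of their fold percentiles in the 2 lists: the first 8 gap regions, the first 8 with no 36 h peak within 5 kb and the first 5 with both peaks detectable. Gap regions and analyses were chosen with earlier results of these data known. The planned sequence, start site and gene results were not made, because the reference tables used are on another build. Python 3.11.15, numpy 2.4.6, pandas 2.3.3 and scipy 1.17.1 were used.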

Additional observations from a re-analysis of the deposited data

How the results depend on the processing

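No paired analysis was possible because each stage had 1 library. For the same reason no library could be left out. The planned results on start sites and on sequence composition were not run. Without a change of direction in any of the 7 settings, the 36 h level at shared regions within 10 kb of a gap region, minus that farther away, was −0.40 (log2) as reported.

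With a −log10 q of at least 5 in every list there were 2564 gap regions, a median of 4954 bp to a 36 h peak and 86 regions with both peaks detectable. With that threshold in proliferation and 72 h only, there were 1315 gap regions, 26.8% of proliferation regions without a 36 h peak had a 72 h peak, 578 gap regions had no 36 h peak within 5 kb, the median distance was 3096 bp and the log2 difference −0.57. With a fold of at least 5 in every list the values were 2826 gap regions, 4426 bp, 147 detectable and −0.37. Requiring an overlap of 50% of the shorter peak gave a share of 33% for a 72 h peak among them and a median of 1751 bp. Joining peaks no more than 1 kb apart gave 2147 gap regions, 50.6%, 12866 bp, 129 detectable and −0.29. Lists of equal length gave 24.2%, 5070 bp, 108 detectable and −0.32. There, also chosen after seeing the data, 14.6%, 10.4% and 35.0% of regions of the other 2 stages lacked a 36 h, 72 h and proliferation peak, and 17.7% of proliferation regions without a 72 h peak had a 36 h peak. Asking for no 36 h peak within 1 kb gave 2664 gap regions, 11009 bp and 144 detectable. The cause of these moves was not tested. For detectable regions, chosen after seeing the data, a stricter chance of a call gave 94, scaling for depth alone 376, the 99% quantile of background 168, and each region's own background 197.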
